A study of Mus musculus with 2 samples.

Results

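The genes described here are 9 of the 32285 genes counted in a single-cell library of mouse spleen cells enriched for natural killer (NK) cells. They were taken by symbol, and all 9 matched: the granule serpins Serpinb9, Serpinb9b and Serpinb6b, the chymase Cma1, the cathepsins Ctsc, Ctsd and Ctsw, the proteoglycan core protein Srgn and the membrane protein Nkg7. The series concerns Kir6.1, a potassium channel subunit, in NK cell development, but the labels give this library as wild-type spleen, with other blood cells removed on magnetic columns. Lipid tags were used to pool cells of several mice, and 11696 cells with exactly 1 of 3 tags were analysed. The sources used here give no strain, age or sex, tie no tag to a mouse, and do not say whether the tags include cells of the second sample in the labels. The tags therefore serve as 3 replicates within 1 library, and each p-value measures only the spread between tags, which may be technical. No separate file of that sample was used here.

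Killer lymphocytes store granzymes and perforin in secretory lysosomes. Serglycin, the product of Srgn, holds these proteins in the granule through its chondroitin sulfate chains, and cathepsin C, the product of Ctsc, removes the activation peptide of progranzymes. Serpinb9 inhibits granzyme B in the cytosol of the killer cell, and Nkg7 takes part in granule release. Ctsd encodes an aspartic protease of lysosomes in most cells, Ctsw a cysteine protease found mainly in killer lymphocytes, and Cma1 a mast cell chymase. In the mouse, maturing NK cells carry CD27 first, then CD27 with CD11b (encoded by Itgam), then CD11b without CD27, and part of the last group gains KLRG1.

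In mm10 with GENCODE vM21, Serpinb6b (chromosome 13, 32965209 to 32979067), Serpinb9 (33003250 to 33017957) and Serpinb9b (33027416 to 33041884) are neighbours on the plus strand within a cluster of 12 Serpinb6 and Serpinb9 genes. Reads from such close paralogs can be split or dropped in counting, so their counts are uncertain to that extent. The bases before the start sites of Serpinb9 and Serpinb9b are shown because this pair is alike there: 71 of 95 aligned columns (74.7%) were identical, against 38.5 to 59.3% in the other 27 pairs of windows. The sequences are RefSeq's (GRCm38.p6), at chr13:33004441-33004540 and chr13:33027314-33027413 on the plus strand, and capitals mark the aligned identical bases. The Serpinb9 window lies inside the longer GENCODE gene model but in none of its exons.
Serpinb9: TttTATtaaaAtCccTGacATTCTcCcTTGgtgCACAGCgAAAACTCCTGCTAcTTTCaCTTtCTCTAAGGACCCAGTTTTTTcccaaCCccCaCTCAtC
Serpinb9b: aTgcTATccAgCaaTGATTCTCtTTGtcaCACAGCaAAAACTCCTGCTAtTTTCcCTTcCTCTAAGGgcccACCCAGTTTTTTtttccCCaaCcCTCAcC

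Windows of 250 bases before the start site were found for 8 of the 9 members. They were searched on both strands for GGTGTGA (T-box letters, in 3.33% of 32851 such windows), TGTGGTT (Runx, 4.4%), CAGGTG (E-box, 17.2%) and GGAAGT (Ets, 19.7%), since members differed along NK maturation. The T-box letters occur before Ctsc and Nkg7 and are capitalised below at chr7:88277945-88277994 and chr7:43437108-43437137, plus strand. The Ets letters occur before Ctsc and Srgn, and the Runx letters before a second start of Srgn and before Gzmb. None of the 4 strings occurs in the windows of Serpinb9, Serpinb9b, Serpinb6b, Cma1 and Ctsd. Of the 250 bases, 211 in Ctsd, 52 in Serpinb6b and 174 in the second Srgn window lie in GENCODE exons of these genes. The Ctsd search therefore covered mostly exon sequence. In Ctsc the T-box letters lie on the other strand and read TCACACC, and the Nkg7 stretch is inside the first exon of the GENCODE model.
Ctsc: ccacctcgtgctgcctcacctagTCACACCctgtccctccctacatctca
Nkg7: agggagggggtagggaaGGTGTGAgaagaa
The window of Cma1, the member with the widest difference between Cd27-only and Itgam-only NK-like cells, is shown whole at chr14:55944676-55944925 on the minus strand. That none of the 4 strings occurs in it says only that these letters are not in this window.
Cma1: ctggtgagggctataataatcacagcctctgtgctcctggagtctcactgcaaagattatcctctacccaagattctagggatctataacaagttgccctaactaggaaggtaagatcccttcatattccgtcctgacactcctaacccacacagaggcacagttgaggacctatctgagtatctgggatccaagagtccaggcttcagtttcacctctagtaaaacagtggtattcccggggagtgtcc

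The 3 tags held 3590, 4213 and 3893 cells and 18485480, 23091461 and 22465648 UMIs, which are counted transcript molecules. Clusters were made without the 9 members and the other granule genes. NK-like clusters held 8526 cells (72.9%), and each had UMIs of all 10 NK markers in at least 10% of its cells. The other classes used were ILC1-like (579 cells), B cell-like (714), conventional dendritic cell-like (556), T cell-like (154) and monocyte or macrophage-like (79). A cluster of 411 cells scored highest for NK but was led by Cd3d and Cd3g, and stayed unnamed. Levels are given in CPM, a gene's UMIs relative to all UMIs of its class in that tag. UMIs are counted at transcript ends, and levels are compared between classes, not between genes.

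The members differed in how their level outside NK-like cells compared with that of the granzymes. B cell-like cells, which should lack granzymes, held Gzma at 11.2%, Gzmb at 12.1% and Prf1 (perforin) at 9.86% of the NK-like mean level. Nkg7 (11.4%), Ctsw (12.1%), Cma1 (12.4%), Serpinb6b (13.6%) and Serpinb9 (14%) lay near these values. Serpinb9b (16.3%) and Ctsd (17.3%) lay somewhat above them, and Ctsc (135%) and Srgn (139%) far above. Gzma stood at 5.59% in conventional dendritic cell-like cells, so its share differed between classes. Whether B cell-like cells make any of these genes or hold them as background was not tested. In ILC1-like cells Ctsd (87.9%), Serpinb6b (83.8%) and Ctsc (83.5%) were near the NK-like level and Ctsw was at 112%, while Gzmb stood at 20.2% and Cma1 at 12%, close to its share in B cell-like cells. In monocyte or macrophage-like cells Ctsc stood at 229% and Srgn at 219%, against 5.72% for Gzma and 4.99% for Cma1. Platelet-like cells (92 cells) held Cma1 at 55.6%, Gzma at 49.2% and Gzmb at 42.8% of the NK-like level. These shares were not tested.

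**Figure D1:**
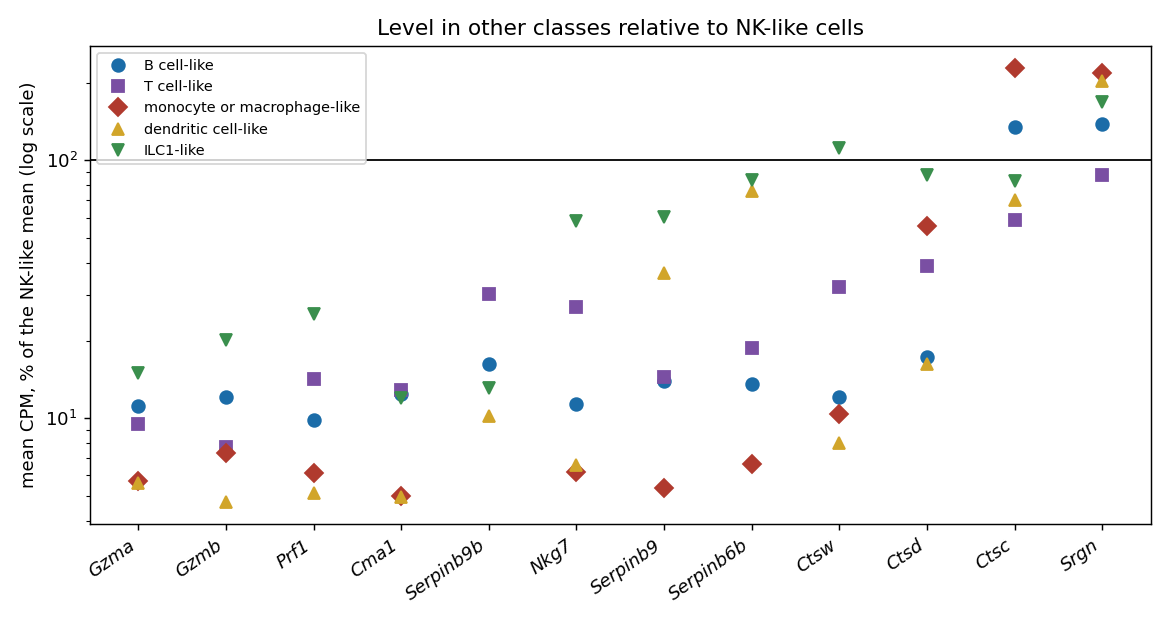
Mean CPM over tags in 5 cell classes as a percentage of the NK-like mean, on a log axis with a line at 100%. Cma1 lies with Gzma, Gzmb and Prf1 at the low end in every class, Ctsc and Srgn lie above 100% in B cell-like and monocyte or macrophage-like cells, and Serpinb9b has no point for monocyte or macrophage-like cells, which held 0 UMIs.

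ILC1-like cells are relatives of NK cells that share many of their receptors. Cma1 stood at 223, 221 and 192 CPM in NK-like cells of tags 1, 2 and 3 (212 ± 17 CPM, SD, n = 3) and at 16.3, 35.9 and 23.9 CPM in ILC1-like cells (25.4 ± 9.87 CPM). Serpinb9b stood at 44.2, 46.2 and 35.6 CPM in NK-like and 1.25, 8.27 and 7.04 CPM in ILC1-like cells, the latter from 20 UMIs in all. Both genes were higher in NK-like cells of every tag, without overlap. Nkg7 stood at 2908, 2896 and 2674 CPM against 1681, 1738 and 1504 CPM, and Serpinb9 at 421, 404 and 415 CPM against 317, 223 and 211 CPM, again without overlap. Srgn was the other way round, at 731, 641 and 672 CPM in NK-like and 1181, 1144 and 1112 CPM in ILC1-like cells.

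By edgeR's quasi-likelihood test, blocked on tag and adjusted over all genes by Benjamini and Hochberg's method, 15.4% of the genes tested passed (7.98% higher and 7.44% lower) between these classes. Of the 9 members, 4 were higher in NK-like cells and 1 was lower. Cma1 was higher by 3.05 on the log2 scale (SE 0.19, adjusted p = 8.67e-15) and Serpinb9b by 2.81 (SE 0.35, adjusted p = 1.33e-07). Nkg7 was higher by 0.83 (adjusted p = 0.00441) and Serpinb9 by 0.80 (adjusted p = 0.00411). The Serpinb9 call was lost with DESeq2 (adjusted p = 0.122) and without tag 2 (0.0568). Srgn was lower in NK-like cells, where it fell by 0.71 (adjusted p = 0.00228). The differences and 95% intervals of the members that did not pass were Serpinb6b (0.30, -0.039 to 0.65), Ctsc (0.31, -0.026 to 0.64), Ctsd (0.23, -0.073 to 0.53) and Ctsw (-0.13, -0.50 to 0.25). The median log2 difference of the 9 members was 0.308, and that of all genes tested 0.0666. The 10 NK markers summed to 13268 to 13825 CPM in NK-like and 7596 to 7782 CPM in ILC1-like cells, and the 10 T cell markers to 513 to 568 CPM and 565 to 727 CPM, with Cd3e, Cd8a and Cd8b1 at 0 in the latter. Dendritic cell markers summed to 193 to 205 CPM and 387 to 771 CPM and B cell markers to 97.8 to 102 CPM and 128 to 153 CPM, neither overlapping, and monocyte or macrophage markers to 49.1 to 50.8 CPM and 31.3 to 34.5 CPM. Their part in the result was not tested.

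Genes around the members moved both ways between NK-like and ILC1-like cells. Cst7, which encodes cystatin F, an inhibitor of cathepsin C, was higher by 1.03 (adjusted p = 6.48e-07). Gzma was higher by 2.80, Gzmb by 2.34 and Prf1 by 2.03, while Gzmc, another granzyme gene, differed by -4.43. Of the other clade B serpins, Serpinb1a, an inhibitor of neutrophil proteases, differed by -4.42 and Serpinb6a by 0.77. Of the other cathepsins, 10 were tested, 0 being higher and 1 lower, with Ctsz at -0.66. Of the enzymes that build and sulfate the serglycin chains, 15 were tested, 1 being higher and 2 lower: Chst15 at -3.69, B3galt6 at -1.06 and Ust at 1.79. Of the lysosome genes, 24 were tested, 4 being higher and 3 lower, with Cd63 at -3.31 and Igf2r, a mannose 6-phosphate receptor, at 1.88.

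T cell-like cells held lower levels of every member but Srgn. Serpinb9 stood at 23.9, 103 and 51.2 CPM there, Serpinb6b at 35.8, 68.6 and 58.1 CPM and Ctsw at 147, 171 and 202 CPM. In NK-like cells Serpinb6b stood at 298, 288 and 283 CPM and Ctsw at 546, 535 and 532 CPM, so these groups did not overlap. The class had 41, 25 and 88 cells in the 3 tags, which limits its precision. In this comparison 19.6% of the genes tested passed (11.4% higher and 8.16% lower), and 8 members were higher in NK-like cells: Cma1 by 3.20, Serpinb9 by 2.75, Serpinb9b by 2.47, Serpinb6b by 2.23, Nkg7 by 1.80, Ctsw by 1.43, Ctsd by 1.26 and Ctsc by 0.79 (adjusted p from 5.89e-10 for Cma1 to 0.0187 for Ctsc). The number of members lower was 0 with edgeR, 0 with DESeq2 and 0 at an unadjusted p under 0.05. The Ctsc call was lost with DESeq2 (adjusted p = 0.154) and without tag 2 (0.0597) or tag 3 (0.547). Serpinb9b, with 6 UMIs in T cell-like cells, differed by 1.35 without tag 3 (adjusted p = 0.19). Srgn stood at 573, 658 and 565 CPM and did not pass (0.056, interval -0.29 to 0.40). Gzma was higher by 3.34, Gzmb by 4.01 and Prf1 by 2.95. Summed NK markers stood at 1342 to 2091 CPM in T cell-like cells, ILC1 markers at 1680 to 2075 CPM and B cell markers at 119 to 215 CPM, the last against 97.8 to 102 CPM in NK-like cells. These sums were not split by gene, so markers that T cells make themselves are not told apart in them. Their part in the result was not tested. The median log2 difference of the 9 members was 1.8, and that of all genes tested 0.167.

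Monocyte or macrophage-like cells held more Ctsc and Srgn than NK-like cells and little of most other members. Ctsc stood at 126, 125 and 142 CPM in NK-like and 417, 260 and 222 CPM in monocyte or macrophage-like cells. Srgn stood at 1895, 1349.7 and 1232 CPM in the latter. Neither gene's groups overlapped. Here 34% of the genes tested passed (18.8% higher and 15.2% lower), 7 members were higher in NK-like cells and 2 were lower. Ctsc fell by 1.14 (SE 0.21, adjusted p = 5.54e-05) and Srgn by 1.12 (SE 0.18, adjusted p = 3.06e-06). Higher in NK-like cells were Cma1 by 4.57, Nkg7 by 3.75, Serpinb6b by 3.61, Serpinb9 by 3.58, Ctsw by 2.98 and Ctsd by 0.98. The Ctsd difference was 0.48 without tag 3 (adjusted p = 0.224). Serpinb9b had 0 UMIs in the class, so its NK-like level was at least 6.84-fold higher than the floor of 3 counts over the class. Gzma was higher by 3.99, Gzmb by 3.92 and Prf1 by 3.58. The median log2 difference of the 9 members was 3.58, and that of all genes tested 0.339. Of the other cathepsins, 10 were tested, 1 being higher and 7 lower, led by Ctsh (-8.03), Lgmn (-6.13), Ctss (-5.62) and Ctsb (-4.77), all proteases of endosomes and lysosomes. The class had 20, 14 and 45 cells per tag, and its dendritic cell markers summed to 1541 to 3467 CPM. Its NK markers summed to 6464 to 7087 CPM, against 13268 to 13825 CPM in NK-like cells. The sum, which includes Tyrobp and Fcer1g, was not split by gene, so markers that these cells make themselves are not told apart. Gzma stood at 5.72% and Nkg7 at 6.2% of the NK-like level in this class. The part of either marker set in the result was not tested.

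Conventional dendritic cell-like cells differed from NK-like cells in most genes: 57.8% of the genes tested passed (28.7% higher and 29.1% lower). Of the members 6 were higher in NK-like cells, Cma1 by 4.06, Nkg7 by 3.64, Ctsw by 3.34, Serpinb9b by 3.04, Ctsd by 2.34 and Serpinb9 by 1.22, and 1 was lower. That was Srgn, which fell by 1.32 (adjusted p = 2.17e-08) and stood at 1635, 1453 and 1079 CPM in dendritic cell-like cells. Serpinb6b stood at 229, 277 and 157 CPM there and did not pass (0.11, interval -0.23 to 0.44), nor did Ctsc (0.21, interval -0.11 to 0.54). Gzma was higher by 3.87, Gzmb by 4.08 and Prf1 by 3.999 in NK-like cells. Scaled by library size alone, Serpinb6b and Ctsc passed at 0.40 and 0.51, with the median of all genes at 0.335 in place of 0.0409.

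**Figure D2:**
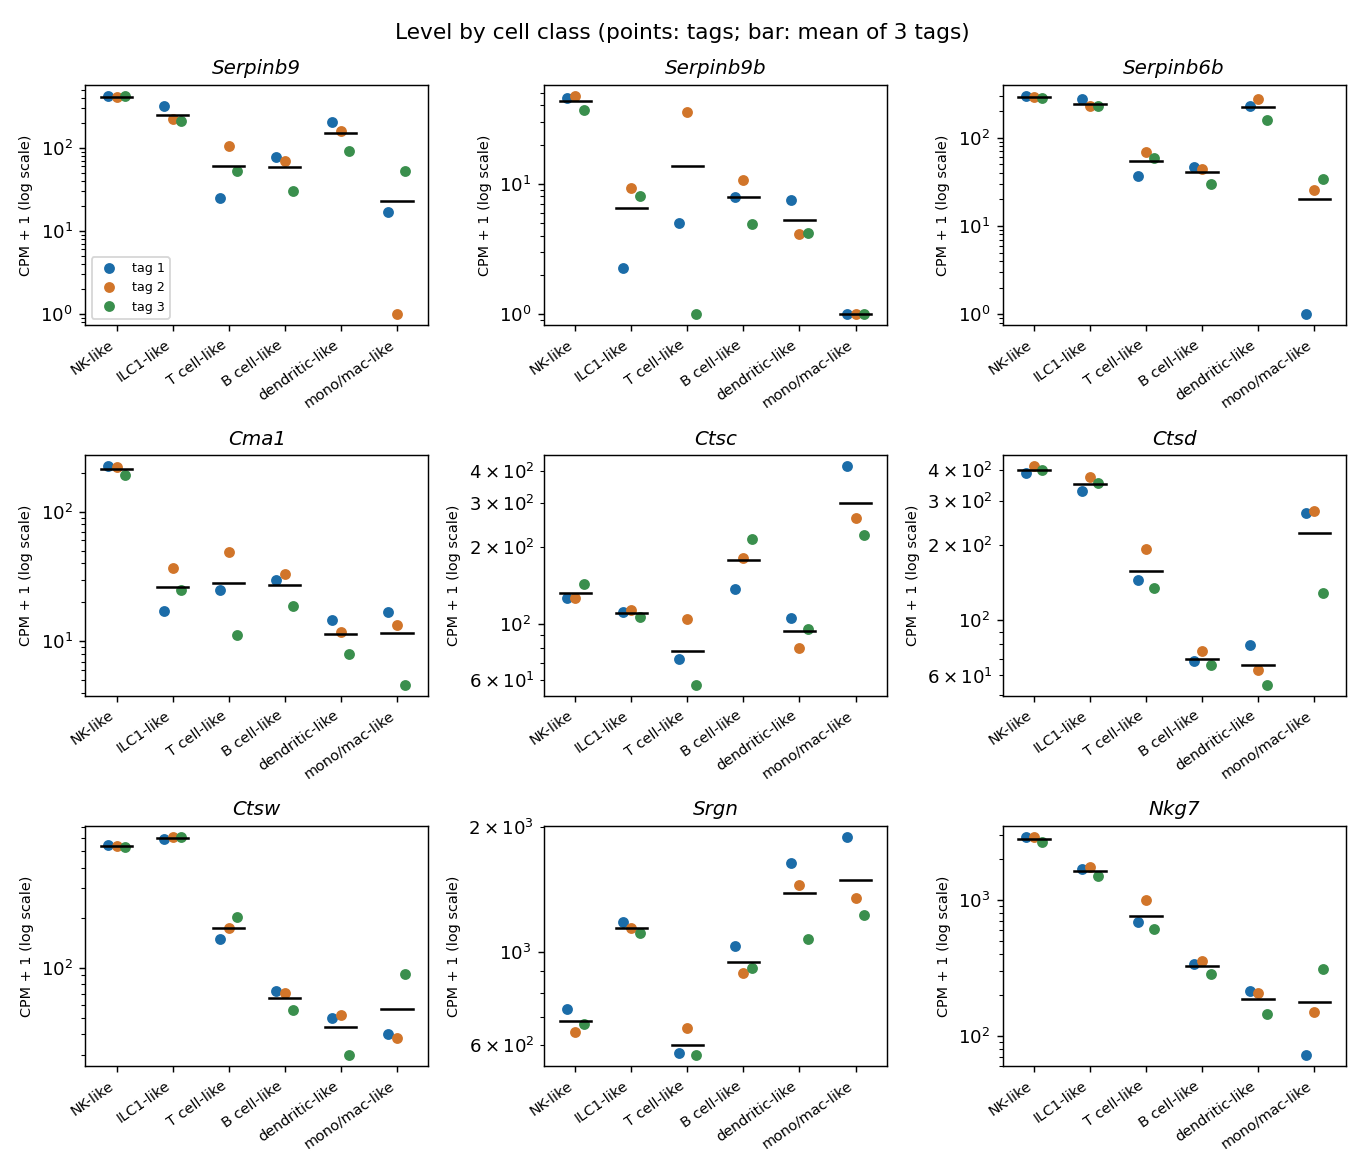
CPM + 1 on a log axis for the 9 members in 6 cell classes, with points for the 3 tags and bars for their mean. The NK-like points of Cma1 (223, 221 and 192 CPM) lie above those of the other classes shown, and the highest mean of Srgn is in monocyte or macrophage-like cells.

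Over the pooled levels of the 10 classes with at least 50 cells, the genes most like Cma1 by Pearson correlation of log2(CPM + 1) were Klra7 (0.98), Gzma (0.98) and Klra4 (0.96). Those most like Ctsw were Il2rb (0.99), Klrb1c (0.98) and Klrc2 (0.98). Klra4, Klra7 and Klrb1c were among the markers that named the NK-like class, and all points share 1 library.

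For maturation, the 7254 NK-like cells with at least 2500 UMIs were thinned to that number and sorted by whether a Cd27 or an Itgam UMI was left. This gave 907 Cd27-only cells, 450 with both, 2535 Itgam-only and 3362 with neither. The calls rest on few molecules, since 81.04% of the Cd27-only group had a single Cd27 UMI and 66.63% of the Itgam-only group a single Itgam UMI. The full counts were then summed per tag. Median depth before thinning was 5059 UMIs in Cd27-only and 3805 UMIs in Itgam-only cells.

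Cma1 was the member that differed most between Cd27-only and Itgam-only cells. It stood at 96.2, 109 and 91.6 CPM in Cd27-only cells, 183, 170.5 and 182 CPM in cells with both and 324, 358 and 275 CPM in Itgam-only cells, with no overlap. Within Itgam-only cells it stood at 274, 309 and 247 CPM without and 454, 500.1 and 362 CPM with a Klrg1 UMI, again with no overlap. Serpinb9b stood at 30.5, 33.3 and 22.2 CPM, 38.9, 24.7 and 33.4 CPM and 60.8, 63.5 and 48.5 CPM in the 3 classes in the same order. Its first pair of classes overlapped, and Itgam-only cells lay above both. Nkg7 stood at 2456, 2484 and 2313 CPM, 2706, 2882 and 2606 CPM and 3290.4, 3298 and 3046 CPM, with no overlap.

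Of the other members Serpinb9, the inhibitor of granzyme B, stood at 381, 383 and 348 CPM in Cd27-only and 469, 442 and 453 CPM in Itgam-only cells. Ctsc stood at 92.1, 101 and 114 CPM against 152, 142 and 151 CPM, and Ctsd at 362, 384 and 333 CPM against 429, 458 and 433 CPM. These 3 did not overlap, and neither did Ctsw at 511, 511 and 526 CPM against 584, 559 and 549.9 CPM. Serpinb6b (317, 311 and 287 CPM against 295, 279.6 and 314 CPM) and Srgn (738, 703 and 692 CPM against 746, 613 and 669 CPM) overlapped.

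In Cd27-only against Itgam-only cells 13.5% of the genes tested passed (8.13% higher and 5.36% lower), and 6 members were lower and 1 was higher in Cd27-only cells. Cma1 fell by 1.64 (SE 0.07, adjusted p = 6.31e-24) and Serpinb9b by 0.94 (SE 0.13, adjusted p = 1.24e-07). Ctsc fell by 0.48 (adjusted p = 3.62e-06), Nkg7 by 0.35 (1.47e-12), Ctsd by 0.23 (0.00058) and Serpinb9 by 0.23 (0.000208). Beside them Gzmb fell by 1.28, Gzma by 0.92 and Prf1 by 0.73. Srgn was higher by 0.14 (adjusted p = 0.0197), a call lost without the tag block (0.393), with DESeq2 (0.0647), and without tag 2 (0.452) or tag 3 (0.0523). Serpinb6b (0.11, interval -0.0023 to 0.22) and Ctsw (-0.075, interval -0.16 to 0.0066) did not pass. Serpinb6b passed without tag 3 (0.19, adjusted p = 0.0384), and Ctsw when scaled by library size alone (-0.13, 0.022). The Serpinb9 call was lost with thinned counts (0.0643) and the Ctsc call with at least 2 gate UMIs (0.305). The median log2 difference of the 9 members was -0.233, and that of all genes tested -0.00249. NK markers summed to 12051 to 13153 CPM in Cd27-only and 14323 to 14931 CPM in Itgam-only cells. T cell markers summed to 576 to 665 CPM in Cd27-only and 473 to 521 CPM in Itgam-only cells, with Cd4 at 0 in both, and ILC1 markers to 120 to 179 CPM and 109 to 117 CPM. B cell markers summed to 112 to 114 CPM and 76.9 to 90.2 CPM and dendritic cell markers to 201 to 213 CPM and 178 to 186 CPM. None of these sums overlapped. Their part in the result was not tested.

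In cells with both markers against Itgam-only cells 2.88% of the genes tested passed (1.92% higher and 0.953% lower), with 4 members lower in cells with both. Cma1 fell by 0.85 (adjusted p = 9.44e-11), Serpinb9b by 0.86 (0.000824), Ctsd by 0.24 (0.0187) and Nkg7 by 0.22 (1.51e-05). The number of members higher was 0 with edgeR, 0 with DESeq2 and 0 at an unadjusted p under 0.05. The differences and intervals of the others were Ctsc (-0.24, -0.43 to -0.053), Serpinb9 (-0.091, -0.20 to 0.02), Serpinb6b (0.087, -0.051 to 0.23), Srgn (-0.048, -0.15 to 0.051) and Ctsw (-0.02, -0.12 to 0.078). Gzma fell by 0.48, Gzmb by 0.71 and Prf1 by 0.31. NK markers summed to 12993 to 13808 CPM in cells with both and 14323 to 14931 CPM in Itgam-only cells, and B cell markers to 105 to 135 CPM and 76.9 to 90.2 CPM, without overlap; their part in the result was not tested. Without the tag block Cma1 alone passed, and Serpinb9b (0.077), Nkg7 (0.0873) and Ctsd (0.23) did not. Without tag 2, Serpinb9b (0.214) and Ctsd (0.569) did not pass. With classes from unthinned counts, Serpinb6b passed at 0.26 (adjusted p = 0.000206) and Ctsc at -0.29 (0.00157).

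When Cd27-only cells were set against those with both markers, 3.25% of the genes tested passed (2.49% higher and 0.762% lower). Of the members, 2 were lower in Cd27-only cells and 1 was higher. Cma1 fell by 0.79 (adjusted p = 4.2e-07) and Nkg7 by 0.13 (0.02), and Srgn was higher by 0.18 (0.0372). Gzma fell by 0.44, Gzmb by 0.57 and Prf1 by 0.42. The differences and intervals of the members that did not pass were Ctsc (-0.24, -0.46 to -0.021), Serpinb9 (-0.14, -0.26 to -0.021), Serpinb9b (-0.081, -0.49 to 0.33), Ctsw (-0.055, -0.16 to 0.05), Serpinb6b (0.021, -0.13 to 0.17) and Ctsd (0.007, -0.13 to 0.14). The Nkg7 call was lost without the block (0.379) and without tag 2 (0.339) or tag 3 (0.153). It was also lost with thinned counts (0.573) and without cells holding Mki67 or Top2a (0.277). The Srgn call was lost without the block (0.425) and without tag 1 (0.063), tag 2 (0.602) or tag 3 (0.0601). With classes from unthinned counts, Serpinb9b passed at -0.90 (adjusted p = 7.76e-05) and Serpinb9 at -0.21 (0.00442). Serpinb9 also passed with all clusters whose best score was NK (-0.29, 0.000806), and Ctsd with several-tag and untagged cells added (-0.20, 0.0242).

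Within Itgam-only cells, the 680 cells with a Klrg1 UMI were set against the 1855 without, and 66.18% of the former held exactly 1. Here 2.65% of the genes tested passed (1.03% higher and 1.62% lower), and 4 members were higher with Klrg1. Serpinb9b was higher by 0.85 (SE 0.13, adjusted p = 7.88e-06), with 105, 83.1 and 68.1 CPM against 43.4, 56.7 and 42.1 CPM. Cma1 was higher by 0.68 (SE 0.06, adjusted p = 5.74e-12), Ctsc by 0.35 (0.0106) and Nkg7 by 0.25 (3.04e-07). The Ctsc call was lost without the block (0.165) and without tag 2 (0.343) or tag 3 (0.0725). The number of members lower was 0 with edgeR, 0 with DESeq2 and 0 at an unadjusted p under 0.05. The differences and intervals of those that did not pass were Ctsd (0.15, 0.038 to 0.27), Srgn (0.10, 0.0027 to 0.19), Serpinb9 (0.07, -0.036 to 0.17), Serpinb6b (-0.03, -0.17 to 0.11) and Ctsw (0.011, -0.084 to 0.11). Ctsd passed with several-tag and untagged cells added (0.16, adjusted p = 0.0265), and Srgn with classes from unthinned counts (0.20, 0.00717). Gzmb was higher by 0.58, Gzma by 0.41 and Prf1 by 0.35. The median log2 difference of the 9 members was 0.152, and that of all genes tested 0.000575. NK markers summed to 14492 to 14693 CPM with and 14247 to 15013 CPM without Klrg1, which overlap. B cell markers summed to 63.6 to 74.4 CPM and 82.2 to 96.5 CPM, which do not, and their part in the result was not tested.

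**Figure D3:**
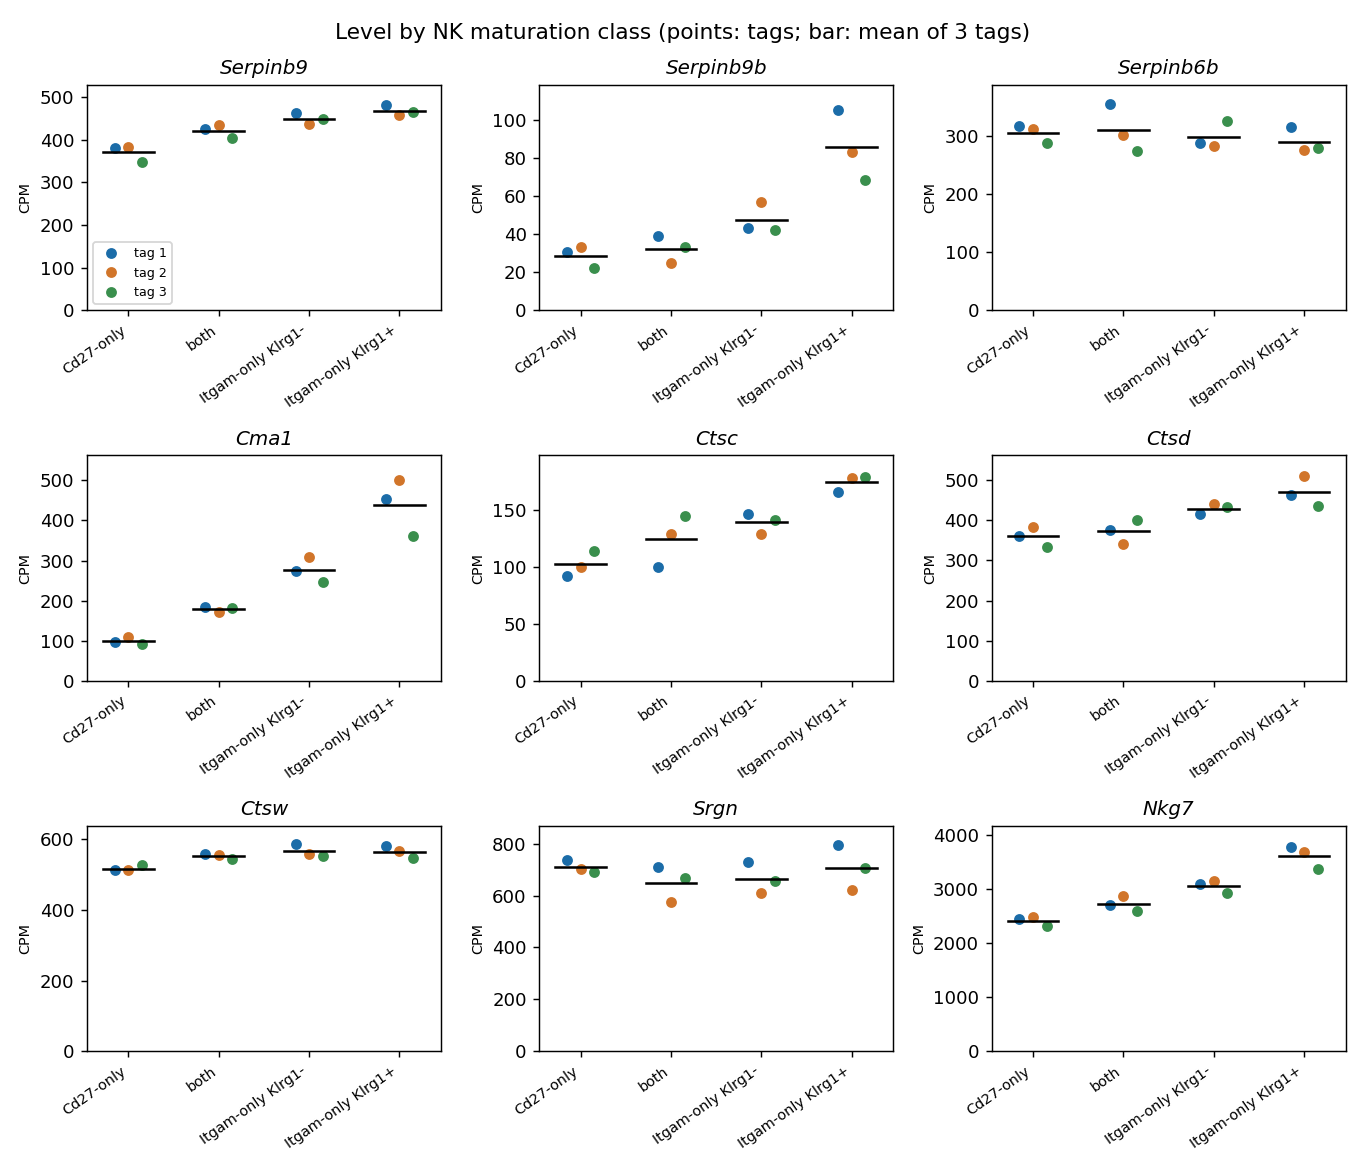
CPM of the 9 members in 4 NK maturation classes, with points for the 3 tags and bars for their mean, and each axis starting at 0. Cma1 lies at 96.2, 109 and 91.6 CPM in Cd27-only and 454, 500.1 and 362 CPM in Klrg1-positive Itgam-only cells, while the points of Serpinb6b overlap across classes.

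Among related genes, Cst7 fell by 0.44 in Cd27-only against Itgam-only cells (adjusted p = 2.39e-05), and Serpinb6a by 0.53. Gnptab, which encodes part of the enzyme that makes the mannose 6-phosphate mark of lysosomal enzymes, fell by 0.60. Gzmm (granzyme M) was higher by 1.20 and the cathepsin gene Ctss by 0.64. Of the other cathepsins, 7 were tested, 1 being higher and 0 lower, and of the serglycin chain enzymes, 13 were tested, 0 being higher and 0 lower. Over the 12 sums of 4 maturation classes and 3 tags, the genes most like Cma1 were Zeb2 (0.99), Spn (0.98) and Ccl5 (0.98). Those most like Serpinb9b were Kctd20 (0.93), Ctsd (0.92) and Fyb (0.91), and those most like Nkg7 were Fgl2 (0.97), Fcer1g (0.96) and AW112010 (0.96).

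Gzmb, whose product is the target of Serpinb9, had a UMI in 3237 of 7254 thinned NK-like cells (44.6%, exact 95% interval 43.5 to 45.8%) and in 57 of 564 ILC1-like cells (10.1%, 7.74 to 12.9%). The share was 4.74% in B cell-like cells (30 of 633), 1.34% in T cell-like cells (2 of 149) and 7.14% in monocyte or macrophage-like cells (5 of 70, interval 2.36 to 15.9%). The T cell-like share was below that of B cell-like cells. The monocyte interval included both the B cell-like and the ILC1-like share, so it cannot tell these levels apart. Whether the Gzmb UMIs of T cell-like and monocyte or macrophage-like cells are background was not tested. Median depth was 3821 UMIs in NK-like and 3921 UMIs in B cell-like cells, and intervals cover counting error only.

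Cma1 and Serpinb9b were found more often in NK-like cells that held Gzmb. Cma1 had a UMI in 50.3, 50.3 and 46.1% of Gzmb-positive and 29.9, 28.9 and 27% of Gzmb-negative cells in the 3 tags, a mean odds ratio of 2.39 ± 0.0953 (SD, n = 3). Serpinb9b had one in 13.2, 11.4 and 10.6% and 4.4, 6.53 and 4.17%, an odds ratio of 2.6 ± 0.723. Neither gene's shares overlapped. The share over all B cell-like cells was 4.74% for Cma1 and 0.632% for Serpinb9b. In B cell-like cells, Cma1 had a UMI in 23.3% and 3.81% of the cells with and without a Gzmb UMI, which 30 of the 633 cells held. The same shares were 3.33% and 0.498% for Serpinb9b, 30% and 5.97% for Serpinb9, 36.7% and 9.45% for Ctsw, 36.7% and 10.8% for Ctsd and 86.7% and 24.7% for Nkg7. Their part in the NK-like association was not tested. In NK-like cells odds ratios were 1.36 ± 0.094 for Serpinb9, 1.35 ± 0.154 for Ctsd, 1.22 ± 0.159 for Ctsw and 1.2 ± 0.0464 for Ctsc. Serpinb6b (0.934 ± 0.048) was below 1 in every tag, and Srgn (0.898 ± 0.102) in 2 of 3. With all clusters whose best score was NK, the mean was 1.001 for Serpinb6b, 1.53 for Serpinb9 and 2.63 for Cma1. With at least 2 Gzmb UMIs it was 3.68 for Serpinb9b, 3.06 for Cma1, 1.47 for Serpinb9 and 1.28 for Ctsc. With several-tag and untagged cells added it was 2.22 for Cma1, 1.25 for Ctsc and 11.77 for Nkg7. Nkg7 was found in 98.8% of the cells, so its odds ratio of 7.93 ± 3.75 rests on the few cells without it. Without thinning all 9 odds ratios were above 1 in every tag, with Serpinb6b at 1.222 and Srgn at 1.557, and Cma1 had a UMI in 45.9% and Serpinb9b in 11.1% of NK-like cells.

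Class by class, the odds ratio of Cma1 with Gzmb was 2.49 ± 0.798 in Cd27-only, 1.73 ± 0.629 in both, 1.93 ± 0.216 in Itgam-only and 2.46 ± 0.211 in cells with neither. In cells with both, the 3 tags gave 1.93, 2.23 and 1.03, the last near 1. Serpinb9b gave 3.88 ± 3.43, 3.85 ± 1.84, 2.43 ± 0.275 and 2.24 ± 0.752 in the same order, and its tags in Cd27-only cells gave 7.68, 0.989 and 2.98. In ILC1-like cells, where 5.5% of cells held Cma1 against 4.74% in B cell-like cells, that of Cma1 was 4.66 ± 2.16. This rests on few cells, since 57 ILC1-like cells held Gzmb and 15.8% of these held Cma1. The share was 4.34% in the 507 without Gzmb. Cma1 and Serpinb9b shared a cell with an odds ratio of 2.17 ± 0.169, in 323 cells. Serpinb6b and Serpinb9, which lie next to each other, gave 1.02 ± 0.0738. Serpinb9 and Serpinb9b, also neighbours, gave 1.29 ± 0.225, with 1.49, 1.32 and 1.05 in the 3 tags.

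**Figure D4:**
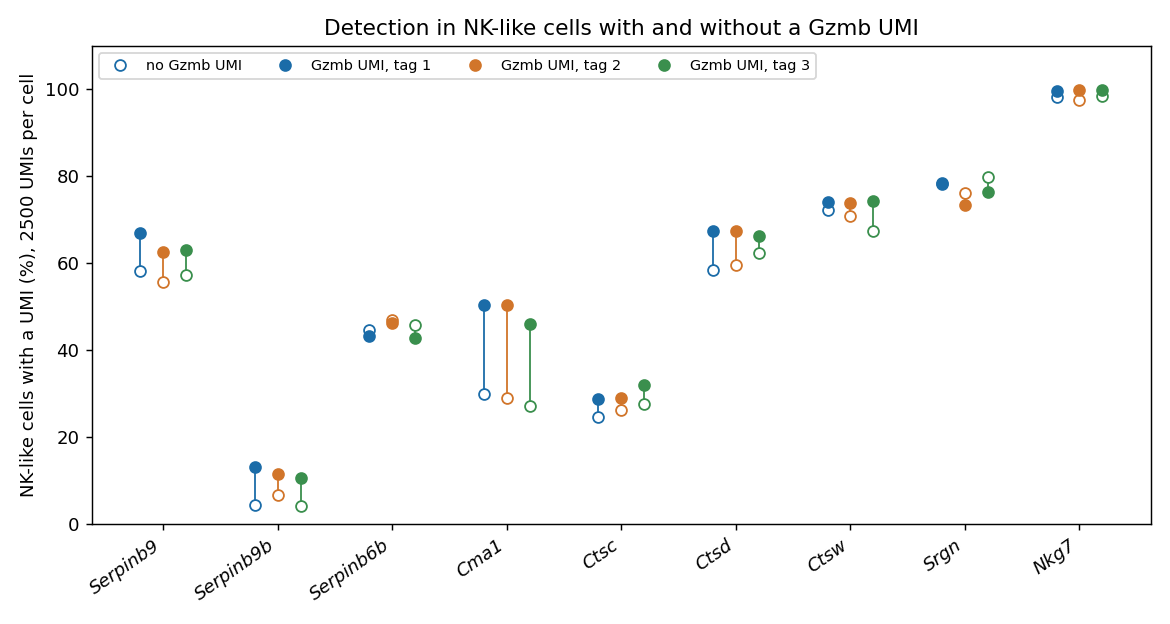
Share of thinned NK-like cells with a UMI of each member, in cells with (filled) and without (open) a Gzmb UMI, for each of 3 tags. The filled points of Cma1 lie at 50.3, 50.3 and 46.1% and the open ones at 29.9, 28.9 and 27%, while those of Serpinb6b and Srgn overlap.

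Levels in Gzmb-positive and Gzmb-negative NK-like cells were then compared within the maturation classes. Of the Gzmb-positive cells 49.37% held exactly 1 Gzmb UMI, and the median depth before thinning was 3799 UMIs in Gzmb-positive and 4501 UMIs in Gzmb-negative cells. Cma1 in Cd27-only cells stood at 218, 173 and 156 CPM with and 66.9, 79.9 and 69 CPM without Gzmb, and in Itgam-only cells at 399, 447 and 339 CPM and 247, 258 and 209.6 CPM. Serpinb9b in Itgam-only cells stood at 91.4, 90.8 and 67.5 CPM and 29.4, 33 and 28.9 CPM. None of these pairs overlapped. In the fit 8.4% of the genes tested passed (2.89% higher and 5.51% lower), and 7 members were higher in Gzmb-positive cells. Serpinb9b was higher by 1.32 (SE 0.13, adjusted p = 9.85e-13) and Cma1 by 1.03 (SE 0.06, adjusted p = 5.84e-23). Nkg7 was higher by 0.32, Ctsc by 0.31, Serpinb9 by 0.28, Ctsd by 0.25 and Ctsw by 0.10 (adjusted p from 6.66e-21 for Nkg7 to 0.0304 for Ctsw). The Ctsw call was lost without the block (0.0705), without the low-count filter (0.113) and without tag 1 (0.0508), tag 2 (0.0954) or tag 3 (0.444). Without cells holding Mki67 or Top2a it was lost as well (0.129). With thinned counts both the Ctsw call (0.146) and the Ctsc call (0.232) were lost. The number of members lower was 0 with edgeR, 0 with DESeq2 and 0 at an unadjusted p under 0.05, and the intervals of Srgn (-0.054, -0.11 to 0.0069) and Serpinb6b (-0.027, -0.11 to 0.06) included 0. Gzma was higher by 0.72 and Prf1 by 0.56, and Gzmb, which set the groups, by 3.29. The median log2 difference of the 9 members was 0.276, and that of all genes tested -0.00442. Cst7 was higher by 0.32, while Gzmm fell by 1.25, Gzmk by 1.25 and the serglycin chain enzyme gene Xylt1 by 0.48. Summed NK markers stood at 14378 to 14890 CPM in Gzmb-positive and 12553 to 13028 CPM in Gzmb-negative cells, and T cell markers at 466 to 513 CPM and 538 to 595 CPM. ILC1 markers stood at 97 to 116 CPM and 129 to 160 CPM, B cell markers at 78 to 88.2 CPM and 103 to 105 CPM and dendritic cell markers at 177 to 194 CPM and 197 to 211 CPM, and none of the 5 sums overlapped. Their part in the result was not tested.

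Whether the Gzmb difference depended on maturation was tested as an interaction, Itgam-only minus Cd27-only, in which 0.0301% of genes passed (0.0301% lower, 0 higher). Of the 9 members, 0 passed with edgeR and 0 with DESeq2, and 1 had an unadjusted p under 0.05. That was Cma1 at -0.57 (SE 0.16, adjusted p = 0.498). With all clusters whose best score was NK, it was -0.79 (adjusted p = 0.00954). The differences and intervals of the other members were Serpinb9b (0.29, -0.33 to 0.90), Serpinb9 (-0.10, -0.29 to 0.089), Serpinb6b (-0.16, -0.39 to 0.064), Ctsc (-0.091, -0.40 to 0.22), Ctsd (-0.083, -0.28 to 0.11), Ctsw (0.065, -0.10 to 0.23), Srgn (0.036, -0.12 to 0.19) and Nkg7 (-0.081, -0.19 to 0.03). Beside them Gzma passed at -0.29 (adjusted p = 0.00913), and Prf1 (-0.19) and Gzmb (-0.22) did not.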

How the data were processed

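The matrix the authors deposited holds raw UMI counts of 32285 genes and 3 lipid tags in 16384 barcodes. Its header names Cell Ranger 7.0.0, and Seurat and mm10 stand in the submitters' processing notes. For the gene annotation and intronic reads the sources used here give no setting. The members, lists and tests were chosen with earlier results of these data known.

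Barcodes with 500 to 6000 genes, at most 10% mitochondrial UMIs and 1 tag above an Otsu threshold (133, 187 and 130 counts) were kept. The filter on genes and mitochondrial UMIs left 15742 barcodes and removed 642; then 3567 barcodes with several tags and 479 with none were left out. Tags cannot show doublets of 2 cells with the same tag, of which 1795 (15.35%) are expected. No other doublet caller was run. Clusters (scanpy 1.11.5, leidenalg 0.10.2, Python 3.11.15; 2000 variable genes, 30 components, 15 neighbours, resolution 1.0) were made without the members and the granule lists, and named from marker sets of 16 cell types. A cluster of 64 cells was left unnamed by a rule added after clusters were seen. One NK-like cluster (748 cells, median 1416 UMIs) was left out in an alternative chosen after seeing the data. For class calls cells were thinned to 2500 UMIs.

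Counts summed per tag and class were tested with edgeR 4.0.16 (R 4.3.3, limma 3.58.1; TMM, filterByExpr, tag as a block, Benjamini-Hochberg over all genes tested at 0.05). DESeq2 1.42.0, library size scaling, no low-count filter, no block, leave-one-out tags, other NK-like sets and other class calls were alternatives. The code was tested on simulated data. Sums of the same tag deviated together: over 6552 genes, the correlation of deviations from the class mean was 0.122 to 0.553 for the 18 same-tag pairs of maturation classes, and -0.356 to 0.0399 for other tags; over the broad classes the 30 same-tag values ran from 0.0116 to 0.557. The tag block was part of the design of every main fit. All named classes with at least 10 cells in each tag shared 1 fit, as did the maturation classes of each split. The error of each test therefore drew on more classes than those compared. Promoters and coordinates came from tables of GRCm38 (mm10). All 9 members, Gzmb, Gzma and Prf1 are named in each comparison, and from each fixed list at most 4 tested genes with the largest difference among those that passed in the same direction in every tag. Odds ratios added 0.5 to each cell of the count table. Ctsc, Serpinb9b and Ctsw overlap a gene on the other strand and Ctsd one on the same strand. The effect of these overlaps on their counts was not tested. All 9 members passed the low-count filter in each fit. No value column was left unmapped.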

Additional observations from a re-analysis of the deposited data

Results flagged for a closer look

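Gzma stood out because its Gzmb-positive minus Gzmb-negative difference differed between maturation classes by a test of that difference. The interaction, Itgam-only minus Cd27-only, was -0.294 on the log2 scale (SE 0.06, adjusted p = 0.00913 with edgeR), lower in 3 of 3 tags. Cd27 (-0.99), which defines the classes, and Emb (-0.67, lower in 2 of 3 tags) passed the same test. The Gzma call was lost without the tag block (-0.2985), without tag 1 (-0.2446), without tag 2 (-0.2441), with several-tag and untagged cells added (-0.1218) and with classes from unthinned counts (-0.1559). None of the 9 members met a rule for a closer look.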

How the results depend on the processing

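Of 1053 recomputed member tests, 987 kept their side of the threshold, 52 were no longer called and 13 became called. In 1, the direction reversed and a call was gained. That was Ctsd in Cd27-only against both-positive cells, at -0.1952 when cells bearing several tags or none were added. Direction was not compared for tests called in neither setting, and some of these changed sign. Srgn in NK-like against T cell-like cells, for example, ran from -0.127 to 0.194 over the settings. In Cd27-only against Itgam-only cells, members higher went from 1 to 0 with DESeq2, library size only, no low-count filter, no replicate block, several-tag and untagged cells added, at least 2 gate UMIs and thinned sums, and ran from 0 to 1 with each tag left out. In both against Itgam-only cells, members lower went from 4 to 1 without the block and to 2 with several-tag and untagged cells added, and ran from 2 to 4 with each tag left out; members higher went from 0 to 1 with classes from unthinned counts. In Cd27-only against both, members higher went from 1 to 0 with DESeq2, library size only, no block, several-tag and untagged cells added, unthinned classes, thinned sums and without cells holding Mki67 or Top2a, and was 0 with any tag left out. Members lower went from 2 to 1 without the block, with thinned sums and without the cycling cells, and to 4 with unthinned classes, and ran from 1 to 2 with each tag left out. In the interaction, members lower went from 0 to 1 with all best-score NK clusters. The cause of these changes was not tested. With at least 2 gate UMIs, the comparisons with cells of both could not be fitted, since too few cells were left. The number of genes called, with its range over the settings, was as follows. NK-like against ILC1-like gave 803 higher (range 426 to 841) and 748 lower (range 557 to 983). NK-like against T cell-like gave 1151 higher (range 461 to 1907) and 821 lower (range 496 to 1290). NK-like against monocyte or macrophage-like gave 1889 higher (range 854 to 2065) and 1528 lower (range 1154 to 2120). NK-like against dendritic cell-like gave 2888 higher (range 1796 to 4545) and 2928 lower (range 2291 to 4159). Cd27-only against Itgam-only gave 854 higher (range 412 to 1311) and 563 lower (range 206 to 982). Both against Itgam-only gave 202 higher (range 71 to 571) and 100 lower (range 29 to 323). Cd27-only against both gave 261 higher (range 114 to 338) and 80 lower (range 18 to 187). Klrg1-positive against Klrg1-negative gave 101 higher (range 35 to 210) and 159 lower (range 54 to 236). Gzmb-positive against Gzmb-negative gave 288 higher (range 172 to 775) and 549 lower (range 351 to 1148). The interaction gave 0 higher (range 0 to 49) and 3 lower (range 0 to 13).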
